A study of Sus scrofa with 3 samples.

Results

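The 10 genes described here belong to the unfolded protein response, the set of signals by which a cell answers unfolded protein in its endoplasmic reticulum (ER). They were chosen by symbol as HSPA5, HSP90B1, DDIT3, ATF4, ATF6, XBP1, ERN1, EIF2AK3, TRIB3 and ASNS, and all 10 were found among the 34579 features measured in pig liver, of which 22945 were mRNA. Liver RNA came from male Chinese Wuzhishan miniature pigs, 6 to 7 months old when the study obtained them and all later fed for 12 weeks on a diet rich in fat and cholesterol, to which 15% lard, 1.5% cholesterol, 10% egg yolk powder and 0.5% sodium cholate had been added. IM pigs were intact after a sham operation, CM pigs were castrated surgically, and CMT pigs were castrated and injected weekly from the day of surgery with 10 mg/kg testosterone propionate. The study asked how testosterone alters the fatty liver that this diet produces, and no group on a standard diet is part of the data. Each group was 1 sequencing library, made from the pooled RNA of 3 pigs according to the labels, and the study's methods name larger groups.

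Unfolded protein is sensed by the ER membrane proteins IRE1 alpha, PERK and ATF6. IRE1 alpha, encoded by ERN1, splices the XBP1 mRNA into the form that yields an active transcription factor. PERK, encoded by EIF2AK3, phosphorylates a translation initiation factor, which slows protein synthesis while favouring translation of ATF4, and ATF4 in turn drives DDIT3 (CHOP), TRIB3 and ASNS. ATF6 travels to the Golgi, is cut by proteases there and enters the nucleus, where with XBP1 it drives ER chaperones such as HSPA5 and HSP90B1. Liver cells secrete most plasma proteins and carry a large ER. ATF6, IRE1 alpha and PERK are controlled as proteins, and XBP1 by splicing, so mRNA levels describe only how much transcript was present. Splicing of XBP1 was not analysed here.

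The values were deposited as FPKM, a unit that scales the fragments of a gene by its exon length and by the fragments mapped. The scaling by length allows levels of different genes within a library to be compared. Reads were recovered from the steps of the FPKM values for 95.2% of the 24277 features above 0, with totals of 32196552 in the IM library, 36125173 in the CM library and 25418984 in the CMT library. On a transcript of 1 kb, 3 reads equalled 1.20, 0.877 and 1.47 FPKM in that order. Intervals given after a ratio are 95% exact binomial intervals on these reads and cover counting error only. With 1 library per group the differences have no replicate check, the spread between pigs is unknown, and each ratio compares pooled libraries. The labelled tissue was checked by 8 hepatocyte markers, which were all present and led by albumin at 690375, 476360.2 and 445509 FPKM in IM, CM and CMT. Scaling mattered for low ratios. When the libraries were scaled to their recovered reads, the median log2 ratio of all mRNA features was 0.26 for CM against IM in place of -0.02, and -0.23 for CMT against CM in place of 0.01. For CMT against IM it was 0.03 in place of -0.01.

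The 10 genes had no shared direction. HSP90B1 and HSPA5 were highest in CMT, TRIB3, DDIT3, ASNS and ATF6 were highest in CM, and ERN1, XBP1, ATF4 and EIF2AK3 were highest in IM. With scaling to recovered reads EIF2AK3 was highest in CM instead. A gene was counted when its FPKM was at least 1 in all 3 libraries and its ratio was at least 1.5-fold, which 15613 mRNA features including all 10 genes could meet. For CM against IM, 1 gene (TRIB3) was counted as higher and 1 (ERN1) as lower, where 11.1% of all features were higher and 12.1% lower. For CMT against CM, 1 gene (HSP90B1) was higher and 2 (DDIT3 and TRIB3) were lower, where 12.1% of all features were higher and 13.5% lower. For CMT against IM, 1 gene (HSP90B1) was higher and 1 (TRIB3) lower, where 6.67% of all features were higher and 10.1% lower. These counts of 10 genes lie near those background shares. The median log2 ratio of the 10 genes was 0.15 for CM against IM, -0.01 for CMT against CM and -0.14 for CMT against IM. With scaling to recovered reads the medians were 0.43, -0.25 and -0.10, and DDIT3 was then also counted as higher in CM than in IM. Both comparisons with CM share 1 library, so a gene high in CM is high in one and low in the other.

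**Figure D1:**
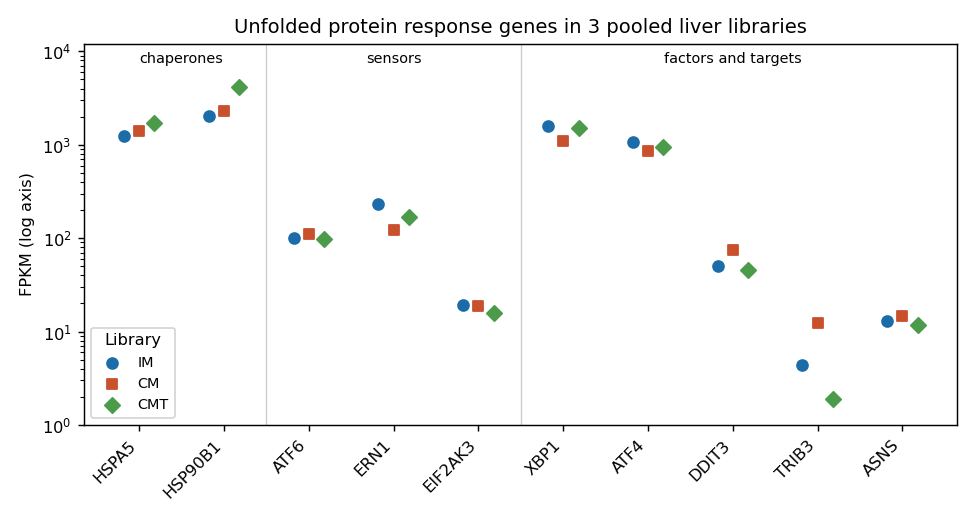
Levels of the 10 unfolded protein response genes in FPKM on a log axis, with 1 point for each of the libraries IM, CM and CMT and no error bars because each group is 1 pooled library. HSP90B1 stands highest at 4107 in CMT, and TRIB3 spans the widest range, from 1.89 in CMT to 12.4 in CM.

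The chaperones were the most abundant of the 10 genes together with XBP1 and ATF4. HSP90B1, which encodes GRP94, the HSP90 of the ER, measured 2015 FPKM in IM, 2291 in CM and 4107 in CMT. IM and CM lay close together and CMT stood apart, at 1.79 times CM (1.74 to 1.84) and 2.04 times IM (1.98 to 2.10). CM was 1.14 times IM (1.10 to 1.17). This spacing depended on the scaling. Scaled to recovered reads, the log2 ratio of CM to IM was 0.47 in place of 0.18. That of CMT to CM was then 0.60 in place of 0.84, so that CM lay well apart from both. Among 12127 mRNA features with at least 10 FPKM in all 3 libraries, HSP90B1 took rank 64 when features were ordered by the smaller of their CMT against CM and CMT against IM ratios.

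HSPA5 encodes BiP, the HSP70 chaperone that binds the luminal side of the sensors and is the gene most used to read ER stress. It measured 1230.3 FPKM in IM, 1416 in CM and 1718 in CMT. Its level was thus in the order IM, CM, CMT, with ratios of 1.15 for CM against IM (1.12 to 1.19), 1.21 for CMT against CM (1.18 to 1.25) and 1.40 for CMT against IM (1.35 to 1.44). None reached 1.5-fold. With scaling to recovered reads the log2 ratio of CMT to CM was 0.04 in place of 0.28, so that CM and CMT were then nearly level.

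Of the sensors, ERN1 showed the widest difference. It measured 235 FPKM in IM, 122 in CM and 167 in CMT. CM was the lowest library at 0.519 times IM (0.484 to 0.557), and CMT lay between, at 1.36 times CM (1.26 to 1.48) and 0.708 times IM (0.657 to 0.763). The log2 ratio of -0.95 for CM against IM put ERN1 at the 5.31 percentile of the 15613 features. Scaled to recovered reads, this log2 ratio was -0.67, and that of CMT to CM was 0.21 in place of 0.45.

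The other sensors differed less. ATF6 measured 100 FPKM for IM, 111 for CM and 97.9 for CMT, and the intervals of all 3 ratios reached 1, at 1.10 for CM against IM (0.985 to 1.24), 0.886 for CMT against CM (0.783 to 1) and 0.978 for CMT against IM (0.855 to 1.12). The sign of the last turned with scaling to recovered reads, from -0.03 to 0.01 on the log2 scale. EIF2AK3 measured 19.4, 19.0 and 15.7 FPKM in the same order, with ratios of 0.981 for CM against IM, 0.827 for CMT against CM and 0.812 for CMT against IM. No reads were recovered for this gene, so it has no interval. Its log2 ratio of CM to IM was -0.03 and turned to 0.25 with scaling to recovered reads, to 0.23 with equal column sums and to 0.04 with upper quartile scaling.

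The transcription factors went different ways. XBP1 measured 1607 FPKM in IM, 1099.6 in CM and 1495 in CMT. CM was the lowest of the 3 libraries, at 0.684 times IM (0.638 to 0.735), just short of the 1.5-fold threshold, and CMT was 1.36 times CM (1.26 to 1.47). CMT and IM were close, at a ratio of 0.931 (0.863 to 1). XBP1 and ERN1, its splicing enzyme, thus had the same ratio of CMT to CM. Scaling to recovered reads brought the log2 ratio of XBP1 in CM against IM to -0.27 in place of -0.55. For CMT against CM it was then 0.20 in place of 0.44.

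ATF4, the factor whose translation PERK favours, measured 1059 FPKM in IM, 861 in CM and 954 in CMT. CM was 0.814 times IM (0.764 to 0.867). CMT was 1.11 times CM (1.03 to 1.19), but this direction turned with scaling to recovered reads, from 0.15 to -0.09 on the log2 scale, and with equal column sums, to -0.10. The ratio of CMT to IM was 0.902 (0.840 to 0.967).

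DDIT3, which encodes the proapoptotic factor CHOP, measured 50.9 FPKM in IM, 74.2 in CM and 46.1 in CMT. CM was the highest, at 1.46 times IM (1.20 to 1.78), just short of the threshold, and CMT was 0.621 times CM (0.498 to 0.770). The interval of CMT against IM held 1, at a ratio of 0.905 (0.707 to 1.16). These values rest on 159, 316 and 117 recovered reads.

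The targets named for this pathway were scarce. TRIB3, a pseudokinase that binds AKT and ATF4 and is induced by both ATF4 and CHOP, measured 4.35 FPKM in IM, 12.4 in CM and 1.89 in CMT. CM stood above both other libraries, at 2.85 times IM (1.94 to 4.29), and CMT was 0.152 times CM (0.0768 to 0.275) and 0.434 times IM (0.205 to 0.860). The values rest on 34, 132 and 12 recovered reads, the fewest of the 9 genes with reads. The log2 ratio of 1.51 for CM against IM lay at the 98.1 percentile of the 15613 features, and that of -2.71 for CMT against CM at the 0.589 percentile. ASNS, asparagine synthetase and a classic amino acid response target of ATF4, measured 13.0, 14.6 and 11.9 FPKM in IM, CM and CMT. Its intervals all held 1, with ratios of 1.12 for CM against IM (0.857 to 1.46), 0.815 for CMT against CM (0.605 to 1.09) and 0.910 for CMT against IM (0.660 to 1.25).

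**Figure D2:**
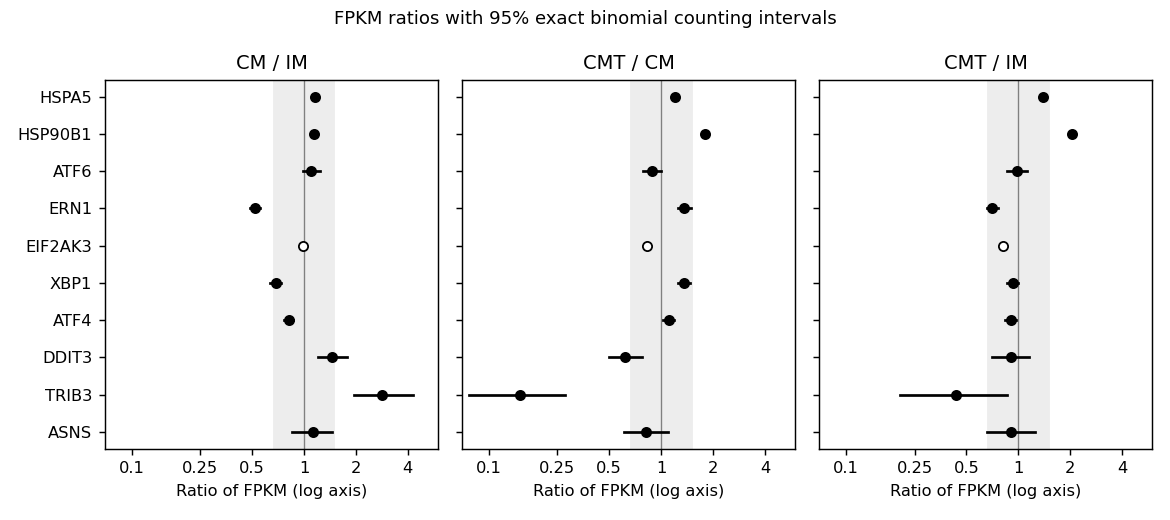
Ratios of FPKM for the 10 genes on a log axis, 1 panel for each pair of libraries, with bars for the 95% exact binomial interval on recovered reads where these exist, an open circle where they do not and a grey band out to 1.5-fold in both directions. TRIB3 lies outside the band in all 3 panels, HSP90B1 in both panels with CMT, DDIT3 in the panel of CMT against CM and ERN1 in the panel of CM against IM.

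The other genes of the pathway came from 6 lists with 119 genes, of which 112 were found, and the remaining 7 were not analysed here. Of the 112, 108 were mRNA features that met the FPKM minimum. The regulator EIF2AK4, at 80.1, 56.6 and 52.1 FPKM in IM, CM and CMT, was above it but not typed as mRNA, so it was not counted. The same held for the amino acid target SLC7A5, at 20.2, 8.91 and 4.98 FPKM from 10, 6 and 2 recovered reads. For CM against IM, 10 of the 108 were at least 1.5-fold higher and 12 lower, or 9.26% and 11.1% beside 11.1% and 12.1% of all features. For CMT against CM, 20 were higher and 10 lower, or 18.5% and 9.26% beside 12.1% and 13.5%. The counts for CMT against IM were also 20 and 10, beside 6.67% and 10.1% of all features. The lists differed widely from each other.

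Every ER chaperone and foldase on the list other than ERO1A was highest in CMT, 18 of 19 or 94.7%, where 33.2% of all features were highest in that library. In CMT relative to CM 9 of 19 (47.4%, beside 12.1% of all features) were at least 1.5-fold higher and 0 lower, with a median log2 ratio of 0.55. Against IM 13 (68.4%, beside 6.67%) were higher and 0 lower, with a median of 0.77, while for CM against IM 0 were higher and 0 lower, beside 11.1% and 12.1% of all features, with a median of 0.10. With scaling to recovered reads 17 of 19 were highest in CMT, and the medians were 0.31 for CMT against CM, 0.82 for CMT against IM and 0.38 for CM against IM. How many of all features were highest in each library was not computed with that scaling, here or for the lists below. SDF2L1, which works with BiP in the lumen, measured 204 FPKM in IM, 181 in CM and 1541 in CMT. CMT was 8.53 times CM (7.25 to 10.1) and 7.55 times IM (6.33 to 9.06), rank 2 of the 12127 features in the order of height in CMT. PDIA6, a protein disulfide isomerase, measured 1535, 1342 and 2943 FPKM in the same order, with CMT at 2.19 times CM (2.12 to 2.27).

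DNAJC3, a BiP cochaperone that also inhibits eIF2 alpha kinases, measured 334 FPKM for IM, 435 for CM and 611 for CMT, a ratio of 1.83 for CMT against IM (1.66 to 2.02). ERO1B, an oxidase that recharges disulfide isomerases, measured 43.2, 53.2 and 73.9 FPKM, and its partner ERO1A 78.7, 96.1 and 87.3 FPKM. FKBP11, a prolyl isomerase of secretory cells, measured 469, 377 and 593 FPKM. CMT was the highest library for these genes except ERO1A, which was highest in CM. The other foldases given here were chosen after their values were seen. CRELD2 measured 103 FPKM for IM, 109 for CM and 397 for CMT, and CMT was 3.64 times CM (3.15 to 4.22). PDIA4 measured 1051, 1141 and 3218 FPKM, with CMT at 2.82 times CM (2.75 to 2.89). DNAJB11, another BiP cochaperone, measured 133, 143 and 359 FPKM, with CMT at 2.51 times CM (2.24 to 2.82). In each of the 3 genes IM and CM were close and CMT stood above both. The lowest ratio of CMT to IM on the list was that of TXNDC5, at 1023 FPKM in both and 944 in CM, also chosen after the values were seen.

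The ER-associated degradation genes, which carry misfolded protein out to the proteasome, stayed below 1.5-fold in all comparisons except for DERL3 and EDEM3. With CM as reference, in CMT 1 of 14 was at least 1.5-fold higher and 0 lower, with a median log2 ratio of 0.23, and for CMT against IM 1 was higher and 0 lower, with a median of 0.10. In CM relative to IM 1 (EDEM3) was higher and 0 lower, with a median of -0.10. Each count of 1 is 7.14% of the list, beside 12.1% of all features higher for CMT against CM, 6.67% for CMT against IM and 11.1% for CM against IM. The medians for CM against IM and for CMT against CM changed sign with scaling to recovered reads, to 0.18 and -0.01. DERL3, a derlin of the retrotranslocation channel and an XBP1 target, was chosen after its values were seen. It measured 23.1 FPKM for IM, 22.0 for CM and 296 for CMT, from 54, 70 and 562 recovered reads. CMT was 13.5 times CM (10.5 to 17.5) and 12.8 times IM (9.67 to 17.3), and DERL3 held rank 1 of the 12127 features in the order of height in CMT. Its relative DERL1, also chosen after the values were seen, measured 404, 367 and 426 FPKM, a ratio of 1.16 for CMT against CM (0.958 to 1.41).

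HERPUD1, a membrane protein of the degradation complex, measured 1157 FPKM for IM, 794 for CM and 1133 for CMT, and CM was the lowest at 0.686 times IM (0.647 to 0.728). EDEM3, a mannosidase that marks glycoproteins for removal, measured 56.2, 87.0 and 71.7 FPKM, with CM at 1.55 times IM (1.38 to 1.74). Its relatives EDEM1, at 105, 86.3 and 102 FPKM, and EDEM2, at 244, 191 and 244 FPKM, were lowest in CM, though with scaling to recovered reads the log2 ratio of CMT to CM was -0.00 for EDEM1 and 0.12 for EDEM2. The ligase adaptor SEL1L measured 196, 228 and 228 FPKM, and SELENOS 305, 344 and 367 FPKM.

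The translocon and secretory entry genes, whose products bring new proteins into the ER, resembled the chaperones in the library that was highest but with smaller ratios. Of 25 genes 20 (80.0%, beside 33.2% of all features) were highest in CMT, or 17 with scaling to recovered reads. In CMT relative to CM 2 (8%, below the 12.1% of all features) were at least 1.5-fold higher and 0 lower, with a median log2 ratio of 0.33. Against IM 5 (20%, beside 6.67%) were higher and 0 lower, with a median of 0.39. Between CM and IM 1 (SEC61G, 4% beside 11.1%) was higher and 0 lower, with a median of -0.02. With scaling to recovered reads the medians were 0.09, 0.43 and 0.26, the last with its sign changed. KDELR3, a receptor that returns ER proteins from the Golgi, measured 138 FPKM for IM, 117 for CM and 268 for CMT, and CMT was 2.30 times CM (2.08 to 2.54). SEC61G, a subunit of the channel, measured 271, 414 and 518 FPKM, with CM at 1.53 times IM (1.38 to 1.69). The coat protein SEC23B measured 104, 136 and 125 FPKM, the signal peptidase subunit SPCS3 489, 597 and 592 FPKM, the translocon protein SSR3 1153, 954 and 1259 FPKM, and the Arf regulator ARFGAP3 388, 266 and 309 FPKM.

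Among the other sensors and regulators, 17 genes were mRNA features that met the minimum. With IM as reference, in CM 2 were at least 1.5-fold higher and 5 lower, or 11.8% and 29.4% beside 11.1% and 12.1% of all features, with a median log2 ratio of -0.17. With scaling to recovered reads 4 were higher and 2 lower, with a median of 0.11, and of all features 22.0% were then higher and 6.42% lower, with a median of 0.26. With CM as reference, in CMT 4 were higher and 1 lower, or 23.5% and 5.88% beside 12.1% and 13.5%, with a median of 0.10. With that scaling 3 were higher and 2 lower, with a median of -0.14, beside 6.82% and 22.4% of all features. For CMT against IM 1 was higher and 1 lower, or 5.88% each, beside 6.67% and 10.1%. The Golgi proteases that cut ATF6 were lowest in CM. MBTPS1 (site-1 protease) measured 449 FPKM for IM, 245 for CM and 507 for CMT, and CM was 0.546 times IM (0.522 to 0.570). MBTPS2 (site-2 protease) measured 46.0, 27.6 and 43.5 FPKM, with CM at 0.600 times IM (0.527 to 0.683). CREB3L3, a liver factor cut by the same proteases, measured 2838, 1682 and 3299.7 FPKM, with CM at 0.593 times IM (0.572 to 0.614) and CMT at 1.96 times CM (1.89 to 2.03). All 3 had CM below both other libraries. ATF6, a substrate of both proteases, had its highest level in CM, but the intervals of its ratios all reached 1. TRAF2, the adaptor that links IRE1 alpha to kinase signalling, was highest in CM, at 72.4 FPKM in IM, 123 in CM and 86.8 in CMT. HSPA13 measured 20.5, 29.7 and 39.0 FPKM and CREB3L1 14.0, 18.1 and 15.4 FPKM.

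The stress targets of ATF4 and CHOP were split. Of 14 genes 7 (50.0%) were highest in IM, 6 (42.9%) in CM and 1 (7.14%) in CMT, beside 31.6%, 35.2% and 33.2% of all features. In CM relative to IM 1 was at least 1.5-fold higher and 5 lower, or 7.14% and 35.7% beside 11.1% and 12.1% of all features, with a median log2 ratio of -0.23. After scaling to recovered reads 2 were higher and 4 lower with a median of 0.05, beside 22.0% and 6.42% of all features. In CMT relative to CM 4 were higher and 5 lower, or 28.6% and 35.7% beside 12.1% and 13.5%, with a median of -0.09. Set against IM, 0 were higher in CMT and 7 (50.0%, beside 10.1%) lower, with a median of -0.39. ATF3 and BBC3 had CM highest, like DDIT3 and TRIB3. ATF3, a repressor induced by ATF4, measured 93.4 FPKM for IM, 139 for CM and 52.4 for CMT, and CMT was 0.376 times CM (0.303 to 0.464). BBC3, the proapoptotic PUMA, measured 14.4, 42.9 and 16.7 FPKM from 17, 69 and 16 reads, with CM at 2.98 times IM (1.73 to 5.40). Most markers of T and NK cells moved with these genes. Their median log2 ratios were 0.45 for CM against IM and -1.03 for CMT against CM. Of 7 markers 5 were higher in CM than in IM, beside 7489 of all 15613 features. In CMT 6 of 7 were lower than in CM and 1 was higher, where 8033 of the 15613 features were higher. CD3D, CD3E, CD2 and CD8A were 0.461, 0.489, 0.485 and 0.405 times as high in CMT as in CM, while CD247 ran the other way at 1.73 times. The 4 cholangiocyte markers among the 15613 features were likewise all highest in CM, as were 35.2% of those features, with medians of 0.76 and -0.59. The part of these cells in the levels of DDIT3, TRIB3, ATF3 and BBC3 was not tested.

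Several other targets on the same list were lower in CM or CMT than in IM. CEBPB, the partner of CHOP in DNA binding, measured 496 FPKM in IM, 190 in CM and 277 in CMT, with CM at 0.384 times IM (0.349 to 0.421). FGF21, a fasting and stress hormone of liver, measured 34.8, 11.4 and 22.5 FPKM, with CM at 0.326 times IM (0.234 to 0.450). SESN2, a stress-induced inhibitor of mTORC1, measured 157, 92.4 and 41.3 FPKM and was 0.263 times as high in CMT as in IM (0.241 to 0.287). VLDLR, a lipoprotein receptor, differed little, at 39.1, 44.3 and 40.3 FPKM. CHAC1, a glutathione-degrading enzyme induced by ATF4, was chosen after its values were seen. It measured 280 FPKM for IM, 2.07 for CM and 271 for CMT, from 1190, 12 and 936 recovered reads. CM was 0.00740 times IM (0.00381 to 0.0130), and CMT was 131 times CM (74.5 to 254) and 0.968 times IM (0.887 to 1.06). CHAC1 and TRIB3, both known as ATF4 targets, thus differed in opposite directions in CM.

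The amino acid targets of ATF4 followed ASNS only in part. Without SLC7A5, 19 genes were counted. Of these 10 (52.6%) were highest in CM, 5 (26.3%) in IM and 4 (21.1%) in CMT, beside 35.2%, 31.6% and 33.2% of all features. With IM as reference, in CM 5 were at least 1.5-fold higher and 2 lower, or 26.3% and 10.5% beside 11.1% and 12.1% of all features, with a median log2 ratio of 0.21. After scaling to recovered reads 7 were higher and 0 lower with a median of 0.49, beside 22.0% and 6.42% of all features with a median of 0.26. With CM as reference, in CMT 0 were higher and 4 (21.1%, beside 13.5%) lower, with a median of -0.06. Set against IM, 0 were higher in CMT and 2 (10.5%, beside 10.1%) lower, also with a median of -0.06. PHGDH, the first enzyme of serine synthesis, measured 326 FPKM for IM, 491 for CM and 145 for CMT, and CMT was 0.296 times CM (0.278 to 0.316). The proline synthesis enzymes were highest in CM as well. PYCR1 measured 27.1, 67.1 and 19.3 FPKM from 19, 64 and 11 reads, with CM at 2.47 times IM (1.46 to 4.37), and ALDH18A1 measured 33.5, 60.5 and 47.1 FPKM, with CM at 1.81 times IM (1.49 to 2.20). CTH, which makes cysteine, measured 2046, 1152 and 1629 FPKM, with CM at 0.563 times IM (0.533 to 0.594). SHMT2, the mitochondrial serine hydroxymethyltransferase, measured 1994, 1287 and 1823 FPKM. The transporter SLC38A2 measured 349, 236 and 245 FPKM, without recovered reads.

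**Figure D3:**
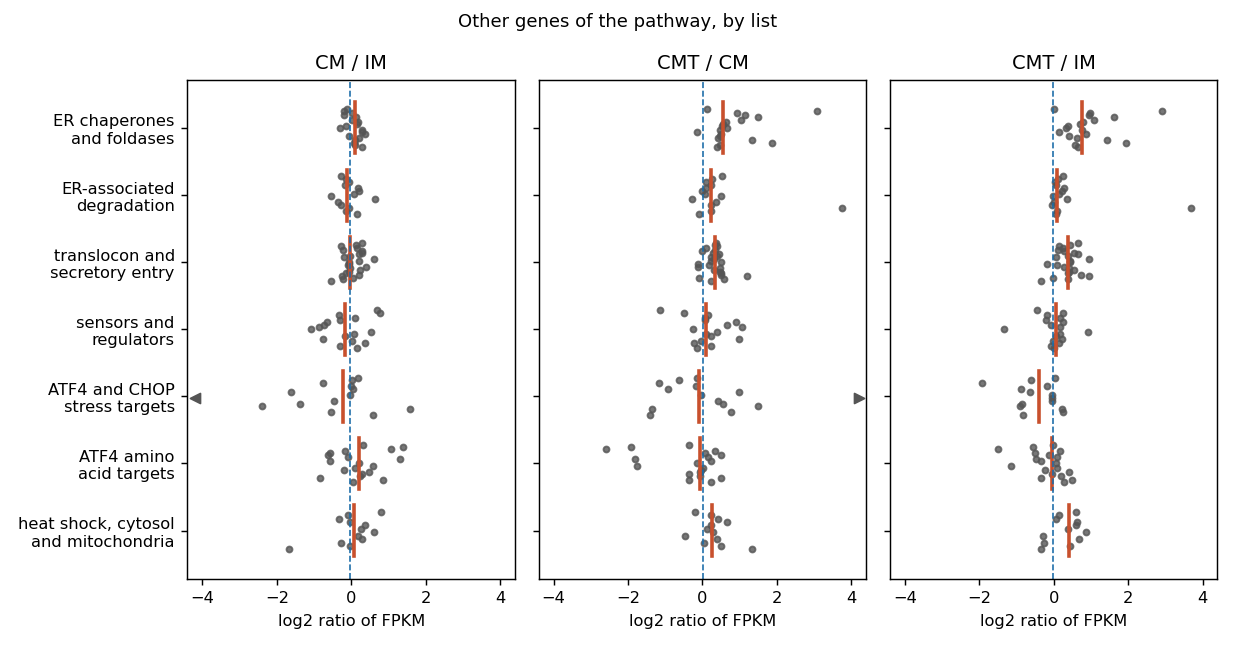
Log2 ratios of FPKM for the wider gene lists and the heat shock list, with 1 point for each mRNA feature at or above the FPKM minimum, an orange line at the median of each list and 1 panel for each pair of libraries. Chaperones lie almost wholly to the right of 0 in both panels with CMT, and the triangles at the panel edges mark CHAC1, whose log2 ratios of -7.08 and 7.03 lie outside the axis.

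Heat shock proteins of the cytosol and mitochondria, which answer unfolded protein outside the ER, were set beside the ER chaperones as the nearest family. Of 12 genes 8 (66.7%, beside 33.2% of all features) were highest in CMT, or 5 with scaling to recovered reads. In CMT relative to CM 2 (16.7%, beside 12.1% of all features) were at least 1.5-fold higher and 0 lower, with a median log2 ratio of 0.25, against 9 of 19 and 0.55 for the ER chaperones. For CMT against IM 5 (41.7%, beside 6.67%) were higher and 0 lower, with a median of 0.42, against 13 of 19 and 0.77. Upper quartile scaling left 2 higher and 0 lower with a median of 0.36, beside 5.51% and 11.7% of all features. Of the ER chaperones 12 of 19 were then higher. In CM relative to IM 2 were higher and 1 lower, or 16.7% and 8.33% beside 11.1% and 12.1%, with a median of 0.07. After scaling to recovered reads the median for CMT against CM was 0.02, with 1 higher and 1 lower, beside 6.82% and 22.4% of all features. HSP90AA1, the cytosolic relative of HSP90B1, measured 2134 FPKM for IM, 2602 for CM and 3386 for CMT, and HSP90AB1 1811, 2048 and 1471 FPKM. CMT was thus above CM for HSP90AA1, at 1.30 times (1.24 to 1.36), and below it for HSP90AB1, at 0.718 times (0.700 to 0.737), where HSP90B1 stood at 1.79 times. HSPA8, the cytosolic relative of HSPA5, measured 1131, 1447 and 1707 FPKM, the same order of libraries as HSPA5, although after that scaling CM was level with CMT. HSP90AB1 was chosen after its values were seen. BAG3, a cochaperone induced by heat shock factor, measured 909 FPKM in IM, 284 in CM and 716 in CMT, with CM at 0.313 times IM (0.298 to 0.328). HSPH1 measured 69.2, 120 and 105 FPKM, DNAJB1 173, 143 and 146 FPKM, and the mitochondrial HSPD1 2412, 1903 and 2527 FPKM. No test of a difference between the lists was possible with 1 library per group.

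**Figure D4:**
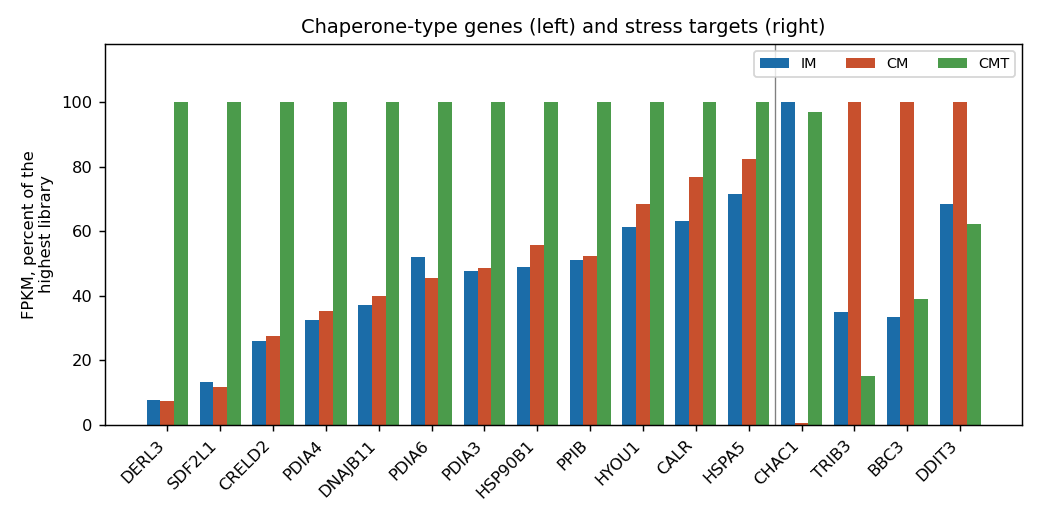
Level of each gene in each library as a percent of its highest library, for genes highest in CMT and for stress genes highest in CM or lowest there. The genes drawn were chosen after their values were seen. DERL3 in IM and CM reaches 7.80% and 7.43% of its level in CMT, HSPA5 reaches 71.6% and 82.4%, and CHAC1 in CM reaches 0.739% of its level in IM.

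Markers of other liver cells were summed for each library. In bulk tissue, fewer cells of a type and less RNA per cell cannot be told apart. Plasma cells also carry high levels of ER chaperones. The summed FPKM of plasma and B cell markers, 9 of 10 found, was 474 for IM, 475 for CM and 622 for CMT. For CMT against CM 2 of the 9 were at least 1.5-fold higher and 1 lower, or 22.2% and 11.1% beside 12.1% and 13.5% of all features. Their median log2 ratio was 0.22. The counts for CMT against IM were also 2 and 1, beside 6.67% and 10.1% of all features, with a median of 0.26. JCHAIN measured 83.1, 88.3 and 85.2 FPKM, MZB1 16.7, 19.7 and 17.1 FPKM, and SDC1, which hepatocytes also express, 251, 277 and 376 FPKM. POU2AF1 measured 83.1, 40.0 and 99.4 FPKM, and TNFRSF17 3.19, 3.90 and 7.85 FPKM from 6, 10 and 12 reads. CMT was thus highest for SDC1, POU2AF1 and TNFRSF17 and not for JCHAIN and MZB1. Of the other markers found, MS4A1 was highest in CMT, CD79A and CD79B in CM and PRDM1 in IM. SDC1 made up most of each sum and most of the rise of the sum from CM to CMT. The 8 hepatocyte markers summed to 1027665, 753472 and 795781 FPKM, and 7 of 8 macrophage markers to 16178, 16031 and 17523 FPKM. The 7 T and NK cell markers summed to 875, 866 and 834 FPKM, of which CD247 made up 450, 296 and 513, the 7 stellate and fibroblast markers to 1458, 1559.9 and 1311 FPKM, 5 of 6 endothelial markers to 1032, 868 and 1001 FPKM, and the 5 cholangiocyte markers to 93.8, 167 and 106 FPKM. None of the markers found was at 0 in any library. The part of cell composition in the ratios was not tested.

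Likeness to HSPA5 and ASNS was measured as the Euclidean distance between pairs of log2 ratios, CM against IM and CMT against CM, over the 3 libraries and the 12127 features. The features nearest to HSPA5 were LIMS1, RRP9, TBK1, PRKRIR and PTRH2, at distances of 0.013 to 0.028. None of them is on a pathway list. TBK1, for example, measured 208 FPKM in IM, 238 in CM and 284 in CMT. Nearest to ASNS were HELQ, TADA2B, RAB1B, LOC100738762 and LOC100517485, at distances of 0.002 to 0.010, and HELQ measured 22.3, 24.9 and 20.3 FPKM.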

How the data were processed

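Liver RNA was pooled by group and sequenced as 1 poly-A selected, paired-end library each for IM, CM and CMT. Per the authors, reads were checked with FastQC and mapped to the pig genome with TopHat, and FPKM values were deposited for 34579 features. The counting program, its strand setting and the annotation are not given in the sources used here. DEGSeq was not rerun.

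FPKM ratios were taken between libraries without rescaling or a pseudocount. Reads were recovered as FPKM times length times a divisor for each library (2.51, 3.42 and 2.04 reads per FPKM and kb), with the smallest whole length of at most 10000 bases that made all 3 values whole. These divisors are not proportional to the recovered totals. A common factor can be lost, which widens intervals, and both mates may be counted, which narrows them. On 3000 genes of simulated data for CM against IM, recovered reads were exact for 93.4%. The simulation took the lengths recovered here as true, so it cannot show a common factor lost in the real data. Intervals held the true ratio for 95.3%, but they were computed on the simulated reads before recovery, so this value does not test the recovery.

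All 10 members were named. Only list genes with at least 10 FPKM in all libraries could be named by rule. On each list these were the 3 with the highest and the 3 with the lowest ratio of CM to IM. Any other gene named for its result, apart from the cell markers, is marked as chosen after its values were seen. EIF2AK4 and SLC7A5 were named because they were not counted. For HSPA5 and ASNS the 5 nearest features were named. Members and lists were chosen with earlier results of these data known. Of the listed pathway genes 91 matched by symbol, 10 by an older symbol, 10 by NCBI gene ID and 1 by a RefSeq synonym. No coordinates or sequences are given, since the gene tables used here hold no sequences and are of another genome build. Alternatives were other FPKM minimums, a pseudocount of 1, a 2-fold threshold, 4 scalings and a read test with an FDR of 0.05. Python 3.11.15, numpy 2.4.6, pandas 2.3.3, scipy 1.17.1 and matplotlib 3.10.9 were used.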

Additional observations from a re-analysis of the deposited data

How the results depend on the processing

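The median ratio scaling, a pseudocount of 1, no FPKM minimum and the added read test kept the counts of the 10 genes, the ER chaperones and the 6 lists within 1.5 times, with medians that differed by less than the counting error of single genes. Among the 10 genes, the ratios that changed sign were those of ATF4, ATF6 and EIF2AK3 given above. For the 10 genes in CM against IM, the count higher was 0 with an FPKM minimum of 10 and 2 with upper quartile scaling, equal column sums or recovered reads, the count lower was 0 at 2-fold, and the median was 0.41 with equal column sums and 0.43 with recovered reads. For CMT against CM, the count higher was 0 at 2-fold, the count lower was 1 with an FPKM minimum of 10 and 1 at 2-fold, and the median was 0.15 with an FPKM minimum of 10, -0.14 with upper quartile scaling, -0.26 with equal column sums and -0.25 with recovered reads. For CMT against IM, the count lower was 0 with an FPKM minimum of 10. TRIB3 is the gene that an FPKM minimum of 10 removes. Of all features, 6.75% were higher in CM than in IM with that minimum. The share was 13.1% with upper quartile scaling, 20.7% with equal column sums and 22.0% with recovered reads, and 4.77% were lower at 2-fold. For CMT against CM 4.80% were higher at 2-fold, and 8.07% were lower with the minimum of 10 and 6.37% at 2-fold. For CMT against IM 5.05% were lower with the minimum of 10.

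Of the 19 ER chaperones, 1 was higher in CM than in IM with equal column sums or recovered reads, beside 20.7% and 22.0% of all features. At 2-fold 5 of the 19 were higher in CMT than in IM, beside 2.16% of all features. Their median for CM against IM was 0.36 with equal column sums and 0.38 with recovered reads, and for CMT against CM 0.42 with upper quartile scaling, 0.30 with equal column sums and 0.31 with recovered reads. Over the 108 genes of the 6 lists, at 2-fold, 4 were higher and 5 lower for CM against IM, beside 4.61% and 4.77% of all features. For CMT against CM 11 were higher, beside 4.80%. For CMT against IM 6 were higher and 4 lower, beside 2.16% and 3.98%. With equal column sums or recovered reads, 17 were higher and 6 lower for CM against IM. Of all features 20.7% and 6.87% were so with equal column sums, and 22.0% and 6.42% with recovered reads. Over all mRNA features, recovered reads gave 3432 higher and 1003 lower for CM against IM, in place of 1737 and 1884, and 1065 higher and 3497 lower for CMT against CM, in place of 1896 and 2110. The scalings move all genes of a library by 1 factor, and which scaling is right was not tested. No paired analysis was possible because each group is 1 library. Depth limits TRIB3, BBC3 and PYCR1, which rest on few reads, and other genes in the list counts. In IM, CM and CMT SLC7A11 rests on 9, 32 and 5 reads and SLC7A1 on 14, 40 and 4. Both were counted among the amino acid targets as higher in CM than in IM and lower in CMT than in CM. WFS1, MAP3K5 and BCL2L11, counted on other lists, also rest on few reads. The genes added here were chosen after their values were seen.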

Other observations

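Ordered by the smaller of their ratios of CMT to CM and to IM, 32 of the 12127 features were at least 2-fold above both other libraries in CMT. DERL3, SDF2L1, CRELD2, PDIA4 and DNAJB11 stood at ranks 1, 2, 6, 10 and 19. NUCB2, a calcium-binding protein of the secretory pathway on none of the lists, stood at rank 3, with a log2 ratio of at least 2.42 against both. The membrane coat genes CAV1 and CAV2 stood at ranks 5 and 9, at 1.97 and 1.53, and LBP, an acute phase protein that binds lipopolysaccharide, at rank 24, at 1.19. These 4 genes were chosen after their values were seen.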
